A study of Mus musculus with 6 samples.

Results

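Transcripts of the proteasome were examined in whole brains of wild-type male C57BL/6J mice by RNA sequencing. The PS group received polystyrene nanoplastics through the nose for 28 days, and the Control group received intranasal sterile distilled water, also for 28 days. There were 3 libraries in PS and 3 in Control, each numbered 1 to 3. The labels do not tie each library to its own animal, and p-values here measure only the spread between libraries, which may be technical. The libraries held 39239183 to 40335590 reads. Members were the genes whose symbol begins with Psm, followed by a letter from a to g and a number, with or without a final a or b. Of 27378 genes listed in each library, 49 matched, and all 49 had a value above 0 in every library. They were sorted by role into 14 constitutive subunits of the 20S core, 17 subunits of the 19S cap, 3 immunoproteasome subunits (Psmb8, Psmb9 and Psmb10), and 15 others, which are chaperones, activators, an inhibitor and 2 tissue-specific core subunits.

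The proteasome degrades proteins tagged with ubiquitin. Its core is a barrel of stacked rings, with alpha subunits that gate the entry and beta subunits that line the chamber, among which Psmb5, Psmb6 and Psmb7 carry the chymotrypsin-like, caspase-like and trypsin-like activities. The cap docks on the alpha ring, binds and strips ubiquitin, and unfolds the substrate with a ring of ATPases. Interferon can exchange the constitutive catalytic subunits for Psmb8, Psmb9 and Psmb10, which cut peptides in forms suited to MHC class I display and are most abundant in immune cells. The transcription factor encoded by Nfe2l1 is known to raise transcription of core and cap genes together when proteasome activity falls, through antioxidant response elements. Loss of protein quality control, with TDP-43 aggregates, is a known feature of amyotrophic lateral sclerosis, which the title of the series names.

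No proteasome member passed the test of PS against Control brains. The libraries of the groups did not overlap in 2 of the 46 tested members, Psme3 and Psmd5 (4.35%), against 11.3% of all tested genes. Of the 46 members with a mean of at least 1 FPKM over the 6 libraries (fragments counted per gene, scaled to gene length and library size), 0 passed limma at an adjusted p under 0.05, where 20 of all 12229 tested genes did (0.164%), or 48 with the replicate number as a block. None of the 46 had an unadjusted p under 0.05 either, higher or lower, against 5.94% of all tested genes, of which 2.66% were higher and 3.29% lower in PS. A total of 0 members were called under any of the 16 alternatives run, limma-voom on recovered reads included. Log2 fold changes (PS over Control) were computed as differences of log2(FPKM + 1), which understates changes of low genes. They ran from -0.10 for Psme2b to 0.14 for Psmb8. All 46 intervals at the 95% level held 0. Their outermost bounds were -0.40 (Psme2b) and 0.36 (Psmb8), which are ratios of 0.757 and 1.284 in FPKM + 1, not in FPKM. Psme2b and Psmb8 averaged only 4.01 and 1.96 FPKM, so the matching bounds in FPKM itself lie further out. The members' median over all 49 was -0.016, against 0.003 for all tested genes.

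**Figure D1:**
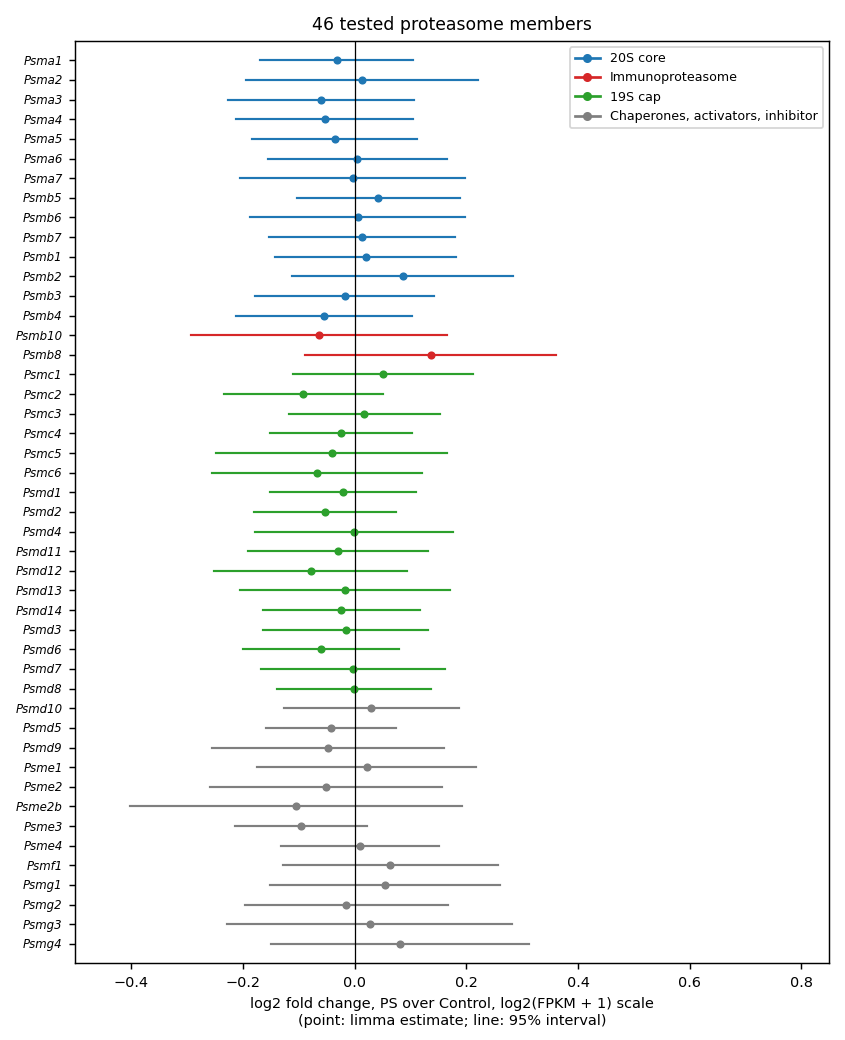
Log2 fold change of PS over Control (x axis, log2(FPKM + 1) scale) for the 46 tested members, grouped by role from top to bottom, with the limma estimate as a point and the 95% interval as a line. Every interval crosses 0, and the widest belongs to Psme2b, from -0.40 to 0.19.

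To show the kind of sequence the antioxidant response element is, the 250 bases before the annotated start were searched on both strands for its core, TGACNNNGC, in the 41 members that have an entry among the RefSeq promoters of build GRCm38.p6. It was present in 4 of 25 core and cap promoters (16.0%) and in 0 of 3 immunoproteasome promoters, against 10.1% of 27025 promoters of all genes. The 4 were Psmb5, Psmb6, Psmc6 and Psmd12, and Psmb6 is not printed because its match lies within an annotated transcript. Stretches of 120 bases from the other 3, read 5′ to 3′ on the strand of the gene, are given with the match in capitals. They lie at chr14:54618023-54618142 on the minus strand for Psmb5, chr14:45329574-45329693 on the plus strand for Psmc6 and chr11:107479278-107479397 on the plus strand for Psmd12, all upstream of the gene. The match in Psmb5 begins 47 bases before the start, and those in Psmc6 and Psmd12, on the opposite strand, begin 227 and 247 bases before it.
Psmb5: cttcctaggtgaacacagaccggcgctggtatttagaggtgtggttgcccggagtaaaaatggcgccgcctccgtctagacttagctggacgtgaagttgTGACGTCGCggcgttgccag
Psmc6: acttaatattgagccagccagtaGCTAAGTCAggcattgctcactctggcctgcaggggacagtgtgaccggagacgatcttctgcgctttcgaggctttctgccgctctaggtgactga
Psmd12: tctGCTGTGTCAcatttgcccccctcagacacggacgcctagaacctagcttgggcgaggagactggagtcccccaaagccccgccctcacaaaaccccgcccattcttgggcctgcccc
Among the 3 immunoproteasome promoters, the interferon-linked motif TTCNNNGAA was found in Psmb8 (7.18% of all promoters) and the interferon-stimulated response element in 0 of 3 (3.04% of all promoters). In the 25 core and cap promoters, TTCNNNGAA was found in 0 and the interferon-stimulated response element in 2 (8.0%). A match describes these letters in this window and is not a measured binding site. The RNA of Nfe2l1 itself stood at 70.0, 69.6 and 69.5 FPKM in PS libraries 1 to 3, against 71.8, 67.0 and 70.1 FPKM in Control libraries 1 to 3. Its log2 fold change was 0.001 (SE 0.053, 95% interval from -0.12 to 0.12, limma adjusted p = 0.998), and the PS values lay inside the Control range.

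All 14 core genes were among the well-expressed genes of the brain, and 0 of the 14 passed the test. Summed over the 14, the core stood at 1111, 1215 and 1168 FPKM in PS libraries 1, 2 and 3, against 1196, 1061 and 1242 FPKM in Control libraries 1, 2 and 3. The sums averaged 1165 ± 51.8 FPKM in PS and 1166 ± 93.9 FPKM in Control (SD, n = 3 each), and the PS range lay within the Control range. Of the 14, 7 had a positive and 7 a negative log2 fold change, from -0.06 to 0.09 with a median of 0.001.

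Among the 7 alpha subunits, Psma2 was the most abundant and Psma3 had the lowest unadjusted p. Psma2 stood at 94.6, 111.6 and 103.1 FPKM in PS, against 108.7, 89.6 and 108.6 FPKM in Control (log2 fold change 0.01, SE 0.091, limma adjusted p = 0.996). Psma3 stood at 20.1, 23.8 and 22.3 FPKM in PS, against 22.9, 21.9 and 24.2 FPKM in Control (log2 fold change -0.06, SE 0.074, limma adjusted p = 0.979). The groups overlapped in both genes. The other 5 alpha subunits averaged between 42.3 FPKM (Psma5) and 89.8 FPKM (Psma6) over the 6 libraries, with log2 fold changes from -0.054 for Psma4 to 0.005 for Psma6.

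Core subunits enter the particle in equal numbers, yet their transcripts spanned a 6.05-fold range of mean FPKM, from Psma3 to Psmb1. Psma3 was counted over 3325 bases, the length that makes its values whole reads, while the other 13 core genes were counted over 731 to 1591 bases. Its reads, 2670 to 3190 a library, fell within the 1917 to 5889 of the other 13, whose FPKM spanned a 3.22-fold range. How far the length used for Psma3 sets its low FPKM was not tested.

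**Figure D2:**
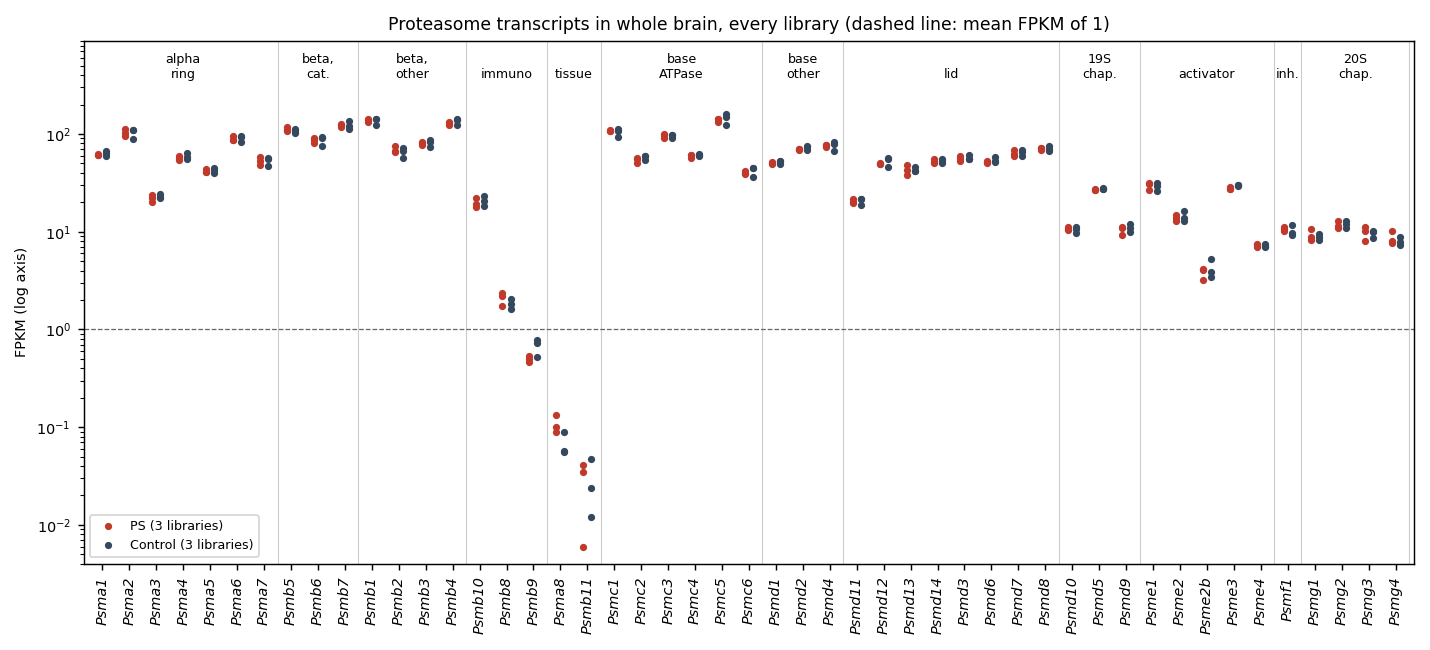
FPKM of all 49 members in every library (log axis), by role from left to right, with the 3 PS libraries as red points and the 3 Control libraries as dark points; the dashed line marks 1 FPKM. Mean levels of core and cap genes sit between 20.6 FPKM (Psmd11) and 141.2 FPKM (Psmc5), most other members lie lower, and Psmb9, Psma8 and Psmb11 below 1 FPKM.

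None of the structural beta subunits Psmb1, Psmb2, Psmb3 and Psmb4 passed either. Psmb1, the most abundant core transcript, stood at 131.9, 140.9 and 138.4 FPKM in PS, against 141.6, 122.6 and 142.3 FPKM in Control (log2 fold change 0.02, SE 0.071, limma adjusted p = 0.996). Psmb2 had the largest estimate of the core, at 65.3, 74.6 and 66.9 FPKM in PS against 66.5, 57.4 and 71.3 FPKM in Control. Its log2 fold change was 0.09 (SE 0.088, 95% interval from -0.11 to 0.28, limma adjusted p = 0.9747), and without Control replicate 2 it was -0.001. Psmb3 and Psmb4 averaged 80.7 and 131.9 FPKM over all libraries, with log2 fold changes of -0.018 and -0.055.

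The catalytic subunits overlapped between the groups. Psmb5 stood at 106.3, 117.9 and 109.1 FPKM in PS, against 108.2, 102.2 and 113.2 FPKM in Control (log2 fold change 0.04, SE 0.065, limma adjusted p = 0.980). Psmb6 stood at 80.9, 91.5 and 87.3 FPKM in PS, against 90.1, 76.1 and 93.1 FPKM in Control (log2 fold change 0.006, SE 0.085, limma adjusted p = 0.997). Psmb7 stood at 119.0, 126.9 and 124.5 FPKM in PS, against 121.4, 112.2 and 134.5 FPKM in Control (log2 fold change 0.01, SE 0.073, limma adjusted p = 0.996). In Psmb6 and Psmb7 the 3 PS values fell inside the Control range.

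The immunoproteasome subunits were far less abundant than the subunits they replace, and to unequal degrees. In PS brains the mean FPKM of Psmb5 was 52.8 times that of Psmb8, Psmb6 was 173 times Psmb9, and Psmb7 was 6.25 times Psmb10. In Control brains the same ratios were 59.3, 128 and 5.92. Psmb10 thus made up most of the immunoproteasome transcripts in both groups, by FPKM.

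Psmb8, which replaces Psmb5, stood at 2.21, 1.74 and 2.37 FPKM in PS, against 1.81, 2.04 and 1.61 FPKM in Control, with overlap. These values rest on 108, 86 and 116 reads in PS and 88, 98 and 78 reads in Control, a counting error of 9.28 to 11.3% a library. The log2 fold change was 0.14 (SE 0.099, 95% interval from -0.09 to 0.36, limma adjusted p = 0.946), the largest positive estimate of the 46 tested members. It was 0.22 without PS replicate 2 (adjusted p = 0.9996) and 0.08 without PS replicate 3 (adjusted p = 0.9988). On the log2(FPKM + 0.1) scale, which shrinks a low gene less, the Psmb8 estimate was 0.195 (limma adjusted p = 0.946). By limma-voom on recovered reads it was 0.203 (adjusted p = 0.9705). Psmb10, which replaces Psmb7, stood at 17.9, 19.3 and 22.2 FPKM in PS, against 20.4, 18.4 and 23.4 FPKM in Control (log2 fold change -0.06, SE 0.101, limma adjusted p = 0.983), again with overlap.

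Psmb9, which replaces Psmb6, lay below the filter of 1 FPKM and was not in the main test. It stood at 0.540, 0.469 and 0.495 FPKM in PS, against 0.522, 0.781 and 0.727 FPKM in Control, from 24, 21 and 22 reads in PS and 23, 34 and 32 reads in Control. The counting error of a library was 17.1 to 21.8%, and Control library 1 lay within the PS range. The difference of the group means on the log2(FPKM + 1) scale was -0.16, and with no filter its unadjusted p was 0.0648 and its adjusted p 0.915 (limma). On the log2(FPKM + 0.1) scale it was -0.36, since a pseudocount of 1 shrinks a gene this low.

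As a share of its constitutive partner, each immunoproteasome transcript overlapped between the groups. Psmb8 amounted to 2.07, 1.48 and 2.17% of Psmb5 in PS, against 1.68, 1.999 and 1.42% in Control. Psmb9 amounted to 0.668, 0.513 and 0.567% of Psmb6 in PS, against 0.579, 1.03 and 0.781% in Control. Psmb10 amounted to 15.01, 15.2 and 17.8% of Psmb7 in PS, against 16.8, 16.4 and 17.4% in Control. Two-sided exact permutation tests of the log2 ratios gave p = 0.5, 0.2 and 0.4 for the 3 pairs, each 0.5 after Benjamini-Hochberg adjustment, and 3 libraries against 3 cannot give less than 0.1.

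**Figure D3:**
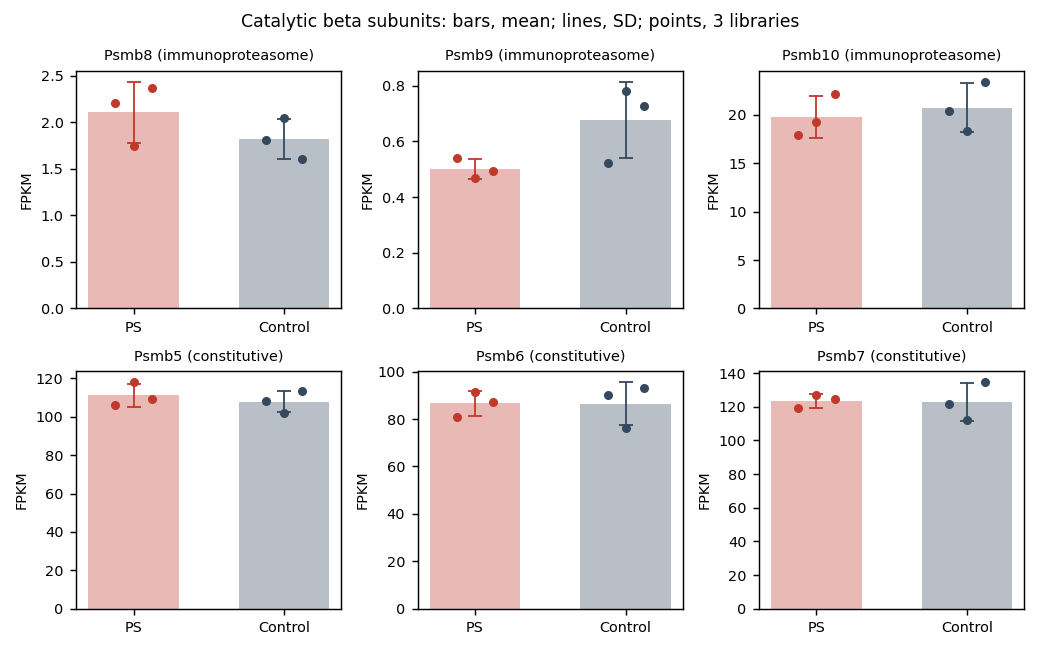
FPKM of the 3 immunoproteasome subunits (top) above the constitutive subunits they replace (bottom), with bars for the mean, lines for the SD and points for the 3 libraries of PS (left) and Control (right). The points of both groups overlap in all 6 panels, and the vertical scales differ.

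Cell types that can carry immunoproteasome transcripts were read from marker lists. In bulk tissue, fewer cells of a type and less RNA per cell cannot be told apart. The 10 microglial markers summed to between 181.2 and 218.3 FPKM in PS and between 197.0 and 213.6 FPKM in Control, with 0 of 10 called. The 10 endothelial markers summed to between 82.8 and 89.9 FPKM in PS and between 90.3 and 105.0 FPKM in Control, and 1 of them, Vwf, was called lower. The 12 markers of blood and infiltrating immune cells summed to between 71.8 and 107.7 FPKM in PS and between 178.6 and 212.3 FPKM in Control, with 0 of the 8 tested called and 4 below 1 FPKM in every library. With the replicate number as a block, 4 of these 8 were called lower in PS, namely Hba-a1, Hba-a2, Hbb-bt and Alas2, genes of red blood cells (limma adjusted p between 0.0155 and 0.0264). Over all 12229 tested genes, the blocked fit called 48, of which 45 were lower in PS. No marker of these 3 lists was at 0 in all libraries. Their part in the levels of Psmb8, Psmb9 and Psmb10 was not tested.

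Of the 17 cap subunits, 0 passed the test. Summed, they stood at 1066, 1134 and 1106 FPKM in PS, against 1158, 1037 and 1167 FPKM in Control, or 1102 ± 33.9 FPKM in PS and 1121 ± 72.2 FPKM in Control (SD, n = 3 each). Log2 fold changes ran from -0.09 to 0.05 with a median of -0.024. Of the 17, 15 were negative, but the outermost bounds of their intervals were -0.256 and 0.212. In the main test 0 of the 17 had an unadjusted p under 0.05.

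Of the 6 base ATPases, which unfold substrates and thread them into the core, Psmc5 was the most abundant and Psmc2 had the lowest unadjusted p. Psmc5 stood at 134.0, 140.7 and 141.7 FPKM in PS, against 159.1, 122.9 and 149.0 FPKM in Control (log2 fold change -0.04, SE 0.091, limma adjusted p = 0.992). Psmc2 stood at 51.1, 56.2 and 55.4 FPKM in PS, against 59.7, 54.7 and 59.1 FPKM in Control (log2 fold change -0.09, SE 0.063, limma adjusted p = 0.944). In Psmc2, 2 PS values lay above the lowest Control value. The other 4 ATPases averaged between 41.0 FPKM (Psmc6) and 106.5 FPKM (Psmc1).

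Among the base subunits without ATPase activity, Psmd4, a ubiquitin receptor, was the most abundant. It stood at 73.1, 76.95 and 78.0 FPKM in PS, against 79.2, 67.5 and 82.3 FPKM in Control (log2 fold change -0.001, SE 0.078, limma adjusted p = 0.998). Psmd2, a scaffold that docks ubiquitin shuttles, stood at 68.6, 70.7 and 69.9 FPKM in PS, against 74.6, 68.7 and 74.0 FPKM in Control (log2 fold change -0.05, SE 0.056, limma adjusted p = 0.9751). Psmd1, the other large scaffold, averaged 51.1 FPKM with a log2 fold change of -0.021.

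In the lid, which holds the deubiquitinase Psmd14, all 8 estimates were negative and small, from -0.078 to -0.001. Psmd12, with the lowest unadjusted p, stood at 49.2, 50.1 and 49.3 FPKM in PS, against 56.3, 46.4 and 54.9 FPKM in Control (log2 fold change -0.08, SE 0.076, limma adjusted p = 0.9747). Its 3 PS values fell between the lowest and the highest Control value. The estimate was -0.16 without Control replicate 2 (unadjusted p = 0.0106, limma adjusted p = 0.6046) and -0.03 without Control replicate 1 (adjusted p = 0.9952). Psmd8, the most abundant lid transcript, stood at 71.7, 71.9 and 68.3 FPKM in PS, against 70.7, 66.8 and 74.8 FPKM in Control (log2 fold change -0.001, SE 0.061, limma adjusted p = 0.998). Psmd14 averaged 52.4 ± 2.90 FPKM in PS and 53.2 ± 2.22 FPKM in Control (SD, n = 3 each).

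Core and cap transcripts differed more between libraries of a group than between the groups. Control replicate 2 was the lowest of the 6 libraries for 21 of the 31 core and cap genes (67.7%), against 30% of all tested genes, and PS replicate 1 for 9 (29%), against 15.3%. Control replicate 3 was the highest for 15 of the 31 (48.4%), against 23% of all tested genes. Relative to each gene's mean on the log2(FPKM + 1) scale, the median core gene stood at -0.063, 0.054 and 0 in PS libraries 1 to 3, and at 0.038, -0.127 and 0.096 in Control libraries 1 to 3. The medians of the cap genes followed a similar order, at -0.063, 0.019 and -0.008 in PS and at 0.058, -0.067 and 0.080 in Control. The median over all tested genes stayed between -0.012 and 0.016 in the 6 libraries.

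Control replicate 2 also stood apart on the first principal component of all tested genes, which held 42.3% of the variance, at 17.46 against -8.21 to 2.93 in the other 5 libraries. Its summed markers of the oligodendrocyte lineage stood at 982 FPKM, against 1335 to 1508 FPKM in PS and 1302 and 1397 FPKM in Control libraries 1 and 3. The part of either in the low core and cap values was not tested. Without it, the median log2 fold change of the core was -0.079 and that of the cap -0.057. Without Control replicate 3 the medians were 0.048 and -0.005, with 0 members called in either case. The within-group SD of a core or cap gene, 0.092 on the log2 scale at the median, was close to the 0.093 of all tested genes.

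**Figure D4:**
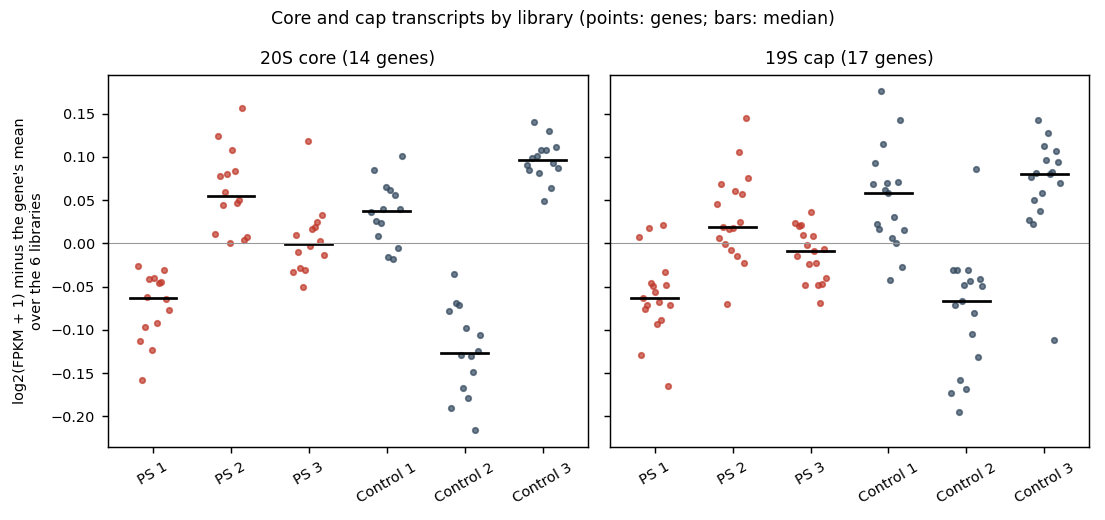
Deviation of each core gene (left) and cap gene (right) from its own mean over the 6 libraries, on the log2(FPKM + 1) scale (y axis), for PS libraries (red) and Control libraries (dark), with the median as a bar. The median of Control 2 lies lowest and that of Control 3 highest in both panels, with the medians of the PS libraries between them.

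Dedicated chaperones build the core and the base. The 4 core assembly chaperones were lower than the core itself and 0 of 4 passed, with overlapping sums of 35.5, 42.8 and 39.8 FPKM in PS, against 40.8, 35.8 and 38.2 FPKM in Control. Psmg2 stood at 11, 12.9 and 11.4 FPKM in PS, against 12.8, 10.9 and 12.001 FPKM in Control (log2 fold change -0.01, SE 0.080, limma adjusted p = 0.996). Psmg4 stood at 7.67, 8.06 and 10.06 FPKM in PS, against 8.82, 7.91 and 7.38 FPKM in Control (log2 fold change 0.08, SE 0.102, limma adjusted p = 0.979). Both overlapped, and Psmg1 and Psmg3 had log2 fold changes of 0.055 and 0.027.

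Of the base chaperones Psmd5, Psmd9 and Psmd10, Psmd5 was the most abundant, at 27.1, 26.6 and 26.9 FPKM in PS, against 27.6, 27.4 and 28.1 FPKM in Control. All 3 PS values lay below all 3 Control values, by little (log2 fold change -0.04, SE 0.051, 95% interval from -0.16 to 0.07, limma adjusted p = 0.979). Psmd9 and Psmd10 averaged 10.7 and 10.6 FPKM, with log2 fold changes of -0.048 and 0.030.

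Alternative activators open the core without the cap. Psme3, which forms the nuclear activator, was the other member whose groups did not overlap, at 27.5, 28.5 and 27.3 FPKM in PS, against 29.4, 29.9 and 29.9 FPKM in Control. Its log2 fold change was -0.10 (SE 0.052, 95% interval from -0.21 to 0.02, limma adjusted p = 0.884), with the lowest adjusted p of the 46 members. The groups did not overlap in 2 of 46 members, or 4.35%, against 11.3% of all tested genes. Psme1, which with Psme2 forms the interferon-inducible activator, stood at 26.5, 31.5 and 30.8 FPKM in PS, against 29.6, 26.3 and 31.6 FPKM in Control (log2 fold change 0.02, SE 0.087, limma adjusted p = 0.996).

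Psme2 averaged 13.9 ± 1.07 FPKM in PS and 14.4 ± 1.77 FPKM in Control, and its copy Psme2b 3.81 ± 0.4998 FPKM in PS and 4.21 ± 0.956 FPKM in Control (SD, n = 3 each). Psme2b is a near-identical copy of Psme2, and how reads were divided between the pair is uncertain. Psme4, a large activator of the core, averaged 7.28 ± 0.287 FPKM in PS and 7.22 ± 0.252 FPKM in Control. The inhibitor Psmf1 stood at 10.2, 10.6 and 11.1 FPKM in PS, against 9.25, 9.71 and 11.6 FPKM in Control (log2 fold change 0.06, SE 0.085, limma adjusted p = 0.979).

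The tissue-specific subunits had few reads. Psma8 is known from testis and Psmb11 from thymus. Psma8 had 9, 12 and 8 reads in PS and 5, 5 and 8 reads in Control, and Psmb11 had 1, 7 and 6 reads in PS and 8, 4 and 2 reads in Control. Both lay below the filter and were not tested. Every marker of neurons, astrocytes and the oligodendrocyte lineage had a value above 0 in at least 1 library.

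Genes that work with the proteasome outside this family were described by lists. Of 55 genes listed in 6 groups, 50 were expressed enough to be tested and 0 passed, where 0.164% of all tested genes did. Of the 50, 3 had an unadjusted limma p under 0.05, against 5.94% of all tested genes. Among 8 further proteasome components, log2 fold changes ran from -0.11 for the ubiquitin receptor Adrm1 (limma adjusted p = 0.923) to 0.08 for the small lid subunit Sem1 (adjusted p = 0.9747), with Ecpas, a proteasome adaptor, at 0.06 (adjusted p = 0.976). Ubiquitin genes and activating enzymes had a median of 0.006, with the activating enzymes Uba1 and Uba6 at log2 fold changes of 0.04 and -0.08. Ubiquitin receptors and shuttles had a median of 0.013, with log2 fold changes of -0.05 for Ubqln4 and -0.03 for Vcp. The regulators of proteasome genes had a median of -0.005, with the lowest unadjusted p in Nfyb (-0.11), Nfyc (-0.05) and Stat3 (-0.06).

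Antigen processing and interferon genes, which share regulation with the immunoproteasome, did not pass either. Of 11 listed genes of MHC class I processing, 9 were tested, with a median log2 fold change of 0.079 over all 11. Calr, a chaperone of class I assembly, stood at 141.4 ± 7.27 FPKM in PS and 127.2 ± 7.57 FPKM in Control (limma adjusted p = 0.838), the class I gene H2-D1 at 37.3 ± 2.72 FPKM in PS and 33.5 ± 3.92 FPKM in Control (adjusted p = 0.906), and Pdia3 had a log2 fold change of 0.08 (adjusted p = 0.951). Of 13 interferon-response genes, 10 were tested, with a median of -0.039 over all 13. Isg15 stood at 1.69 ± 0.216 FPKM in PS and 2.25 ± 0.231 FPKM in Control (limma adjusted p = 0.655), and Irf9 at 2.17 ± 0.056 FPKM in PS and 2.48 ± 0.163 FPKM in Control (adjusted p = 0.879). These SDs are over n = 3 libraries each.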

How the data were processed

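The deposited values are FPKM, with a table for each library. Per the submitters' processing notes, the tools included fastp, HISAT2, HTSeq and R 3.2.0, with GRCm39 as the build; order, settings and strandedness are not given in the sources used here. In GENCODE M21, 14 of the 49 members share exon bases with another gene, 11 of them on the opposite strand (among them Psmb8, Psmb9, Psmb7, Psmc3 and Psme1), so their reads are less certain.

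Whole reads were recovered from the steps of the FPKM values, using the annotated lengths of 13 mitochondrial genes: 99.996% of 26556 genes above 0 gave whole numbers throughout, to within 0.02 reads. Totals were 39239183 to 40335590 reads, and the 31 core and cap genes had 1917 to 9845 reads a library. Counting errors given cover counting only.

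Values were taken as log2(FPKM + 1). The 12229 genes averaging 1 FPKM or more were compared by limma 3.58.1 in R 4.3.3 (group only, variance trend, two-sided). The Benjamini-Hochberg adjustment was over all of them. The test was also run on simulated independent counts with the same dispersion for every gene. That simulation held no outlying library and no link between same-numbered libraries. It therefore cannot show how often small changes would be found in the real libraries. Members and lists were chosen with earlier results of these data known. Each library was given in full for the immunoproteasome and its partners and, in each other subgroup, for the most abundant member and the one with the lowest unadjusted p; in each pathway list the 3 lowest unadjusted p were named, except that some are not reported here. Nfe2l1 was added outside this rule. Paaf1 was not analysed here. Between replicates of a group, the chi-square of the reads divided by its degrees of freedom was 10.47 to 40.91, so none was a copy of another. Deviations of same-numbered libraries from their group means correlated at 0.181, 0.185 and 0.161, all above 0.1. With Control libraries of another number, the highest correlations of PS libraries 1 to 3 were -0.014, -0.043 and 0.025. The labels state no pairing, and whether the higher same-number correlations mark one was not tested. A blocked fit was therefore run only as an alternative.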

Additional observations from a re-analysis of the deposited data

How the results depend on the processing

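Alternatives were another pseudocount, no filter or a mean FPKM of at least 5, 3 rescalings, no variance trend, sample weights, the replicate block, limma-voom on recovered reads, and each library left out. The count of called members was 0 in every one; the lowest adjusted p of a member was 0.072, for Psmd12 with sample weights. The count over all genes, 20, was 1 with no filter, 9 at a mean FPKM of at least 5, 632 with sample weights, 48 with the replicate block, and 0 to 66 with a library left out. The block ended or made no call among the members. With a library left out, the medians ran from -0.079 to 0.048 for the core, -0.057 to -0.003 for the cap and -0.145 to 0.023 for the immunoproteasome. The last range is the same as that of Psmb10 alone. Psmb8 ran from 0.075 to 0.223, and the untested Psmb9 was at -0.156 with all libraries. The estimate turned sign in at least 1 alternative for 36 of the 46 tested members. Of the genes given by library or named from the pathway lists, signs turned as follows: Psmb6 to -0.006 with quantile normalization, -0.004 with the total without mitochondrial genes and -0.042 with sample weights; Psma2 to -0.007 with quantile normalization and -0.056 with weights; Psmb7 to -0.008 with quantile normalization; Psmb1 to -0.032 and Psmg4 to -0.005 with weights; and Psmd4 and Psmd8 each to 0.007 with upper quartile scaling. With a library left out, the log2 fold changes of these named genes that turned sign ranged from -0.079 to 0.073 for Psma2, -0.114 to 0.004 for Psma3, -0.050 to 0.056 for Psmb1, -0.145 to 0.023 for Psmb10, -0.001 to 0.154 for Psmb2, -0.001 to 0.078 for Psmb5, -0.082 to 0.061 for Psmb6, -0.050 to 0.080 for Psmb7, -0.149 to 0.036 for Psmc5, -0.086 to 0.055 for Psmd4, -0.042 to 0.040 for Psmd8, -0.047 to 0.096 for Psme1, -0.078 to 0.034 for Psmg2, -0.026 to 0.150 for Psmg4, -0.008 to 0.126 for Sem1, -0.273 to 0.025 for Uba6 and -0.126 to 0.009 for Ubqln4. The cause was not tested. Depth limits Psmb9, Psma8 and Psmb11 most.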
